A study of Rattus norvegicus with 31 samples.

Results

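The genes described here were 5 that act in glycine receptors or anchor receptors at inhibitory synapses, namely Glrb, Glra2, Gphn, Nptn and Rdx. Probesets are the groups of short probes that each report a transcript on the array. The members were all probesets in the deposited table that the array annotation gave to those symbols alone. These were 10 probesets of 16204 in the table, with 5 for Rdx, 2 for Glrb and 1 each for Glra2, Gphn and Nptn. RNA of the hippocampal CA3 region, microdissected by hand, was measured in 31 male outbred Long-Evans rats with 1 Affymetrix array per rat. A learning index from an earlier water maze assessment, at an age of 24 months, divided the rats into aged unimpaired (AU) and aged impaired (AI). About 1 month later all rats swam 8 trials to a visible platform. In the spatial task (S) the platform was fixed and cues stood around the room. In the non-spatial task (NS) the platform was moved and the cues were taken away. A probe trial without the platform followed 1 hour after training, and tissue was taken right after it, about 2 hours after the task began. The groups were AU-S (8 rats), AI-S (8), AU-NS (8) and AI-NS (7, after the authors removed 1 array), with the tasks pooled as AU-act (16) and AI-act (15). All 4 groups had swum, so no group stood for rats at rest, and the phenotypes occurred naturally in the outbred strain. Values are log2 signals after gcRMA, a method that corrects background, applies quantile normalization between arrays and summarises the probes of a probeset. Where quantile normalization is named below as an alternative, it was a second such step, applied to the deposited values.

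Glycine receptors are chloride channels built from alpha subunits, which carry most of the transmitter site, and a beta subunit that binds the scaffold protein gephyrin below the membrane. Gephyrin also clusters many GABA-A receptors opposite inhibitory terminals, and in hippocampus glycine receptors lie largely outside synapses. Radixin ties GABA-A receptors that hold the alpha 5 subunit to actin away from the synapse, and neuroplastin is an adhesion molecule that has been found with GABA-A receptor subunits.

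The 4 probesets that rose in AU-act relative to AI-act belonged to Glrb (both probesets) and Rdx (2 of 5), and the windows around the starts of these 2 genes are shown because they carried the change. The windows come from RefSeq (GRCr8), where all 5 members had a match, run from 250 bases before to 50 bases after each start on the gene's strand, and have the GC box GGGCGG, read on both strands, in capitals. They lie at chr2:168505565-168505864 (minus strand) for Glrb and chr8:61275542-61275841 (plus strand) for Rdx.
Glrb: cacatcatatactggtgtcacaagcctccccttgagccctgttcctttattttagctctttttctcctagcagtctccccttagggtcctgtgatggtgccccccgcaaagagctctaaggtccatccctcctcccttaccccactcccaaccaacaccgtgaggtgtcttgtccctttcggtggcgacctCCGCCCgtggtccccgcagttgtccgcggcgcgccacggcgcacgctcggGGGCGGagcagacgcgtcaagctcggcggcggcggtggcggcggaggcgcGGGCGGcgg
Rdx: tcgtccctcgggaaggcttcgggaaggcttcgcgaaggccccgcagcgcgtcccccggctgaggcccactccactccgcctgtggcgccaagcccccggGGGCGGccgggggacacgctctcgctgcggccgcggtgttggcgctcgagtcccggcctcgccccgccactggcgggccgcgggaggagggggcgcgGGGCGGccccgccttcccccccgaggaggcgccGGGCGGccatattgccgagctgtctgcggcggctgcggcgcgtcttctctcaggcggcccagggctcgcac
Each of these windows held 3 GC boxes, the window of Nptn held 2, and those of Gphn and Glra2 held 1 each. All 5 members thus had at least 1, as did 33.1% of all 33469 promoter windows. Glrb had 28 CpG dinucleotides and Rdx had 43, against a median of 7 over all windows, and Gphn (41) and Nptn (29), whose probesets did not pass, were also rich in them. All motifs were read on both strands. Glra2 differed from the other 4, with 9 CpG and a single TATAAA, a motif found in 14.2% of windows. That TATAAA lay on the strand opposite the gene. The CRE TGACGTCA, found in 1.83% of windows, was in none of the 5 member windows. Its half-site TGACG, which every CRE also holds, was in that of Glrb alone, on the strand opposite the gene (21.2% of windows). CACGTG, an E-box, occurred 2 times for Nptn and in no other member (6.42% of windows). A match only describes these letters, and the arrays measured nothing at the promoters.

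The first question was whether AU and AI rats that had just trained differed, with the tasks pooled. Both Glrb probesets were higher in AU-act by small amounts, 2 Rdx probesets were higher by 1.24- and 1.34-fold, and the brightest Rdx probeset was level. Of the 10 member probesets 4 passed the threshold (limma, Benjamini-Hochberg adjusted p under 0.05), while 5.51% of all probesets passed. All 4 were higher in AU-act, a direction in which 5.00% of all probesets passed. At an unadjusted p under 0.05 there were 6 of 10 members, against 19.5% of all probesets. The members' median difference, AU-act minus AI-act, was 0.11 on the log2 scale and that of all probesets 0.01, with 8 of 10 members above 0 against 53.3% of all probesets. Probesets of the same gene are not independent, and the members were chosen with earlier results of these data known. These counts describe the members and carry no test.

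**Figure D1:**
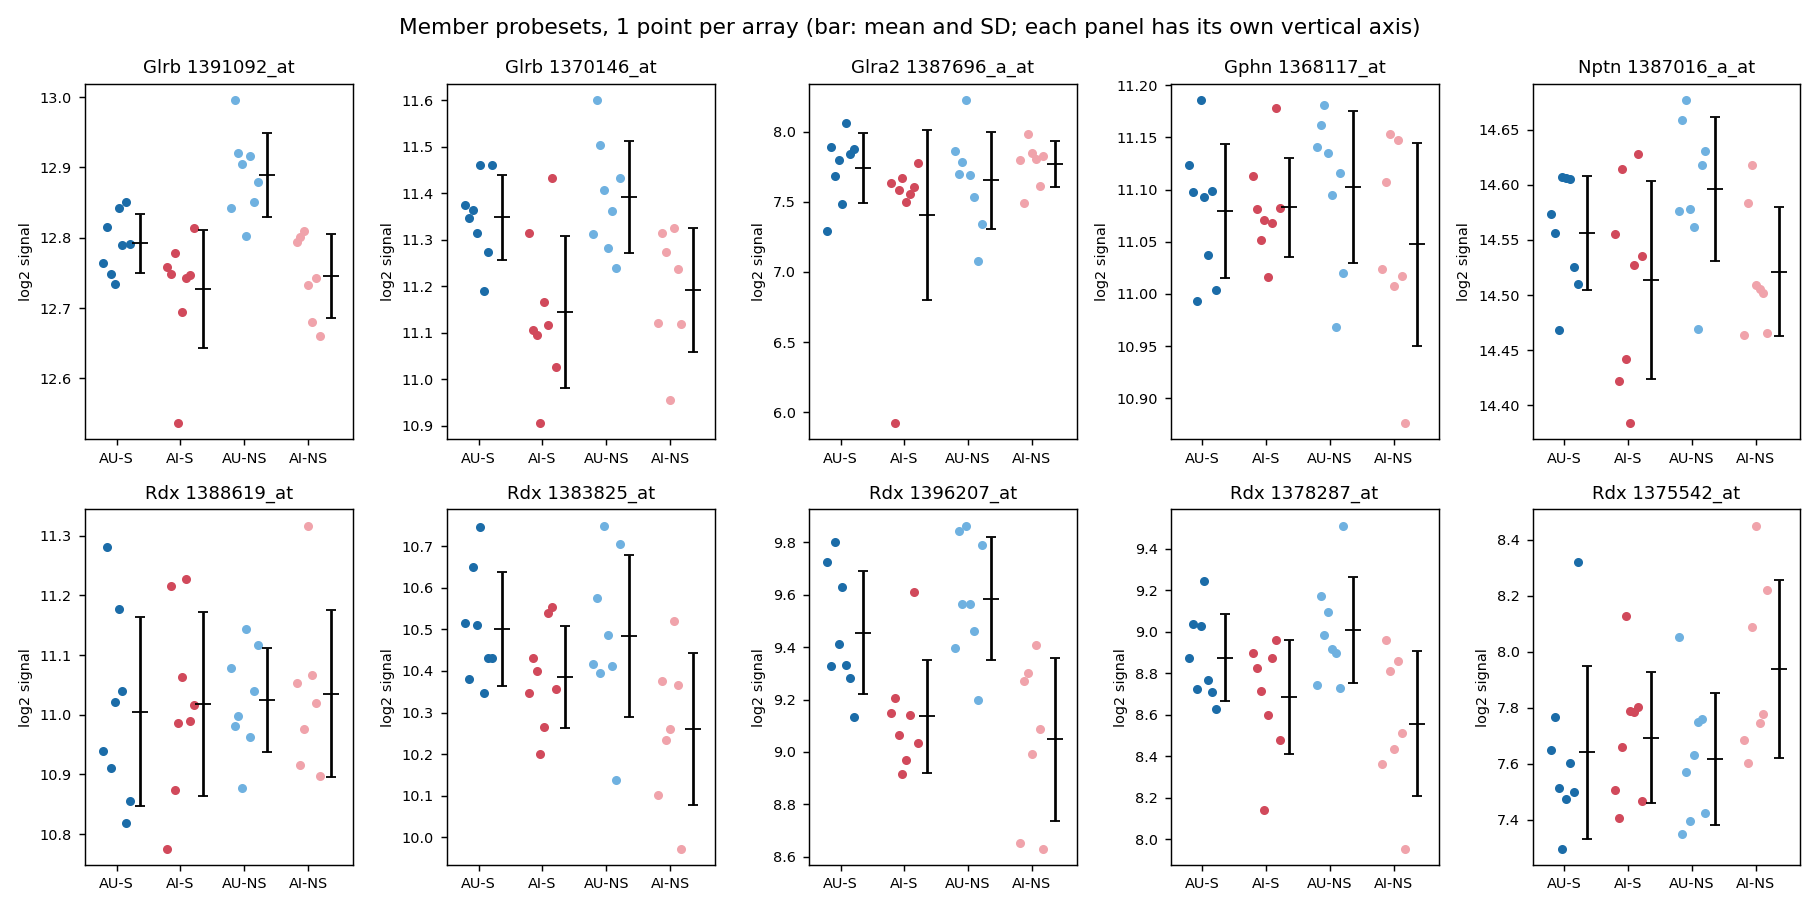
The log2 signal (vertical axis, a separate scale in each panel) of the 10 member probesets in the 4 groups (AU left of AI within each task), with 1 point per array and bars for the mean and SD. The Glrb and the middle Rdx panels have higher AU than AI means in both tasks with overlapping points, and Glra2 has a single AI-S array at 5.92 far under the rest.

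Glrb encodes the beta subunit, the part of the receptor that gephyrin holds. Its probeset 1370146_at ran from 11.19 through a median of 11.36 to 11.60 in AU-act and from 10.91 through 11.12 to 11.43 in AI-act. All 16 AU arrays lay above the AI mean, and 14 of 15 AI arrays lay under the AU mean, though the ranges overlapped. The difference was 0.20 (SE 0.05, 95% interval 0.11 to 0.30, limma adjusted p = 0.00766), or 1.15-fold.

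The brighter Glrb probeset, 1391092_at, had a lowest, median and highest value of 12.73, 12.84 and 13.00 in AU-act and of 12.54, 12.75 and 12.81 in AI-act. Of the AU arrays 10 exceeded the highest AI array. The difference was 0.10 (SE 0.03, limma adjusted p = 0.0334), or 1.08-fold. That call was lost, with an adjusted p between 0.0511 and 0.0623 and a difference between 0.09 and 0.10, when any of 7 arrays was left out (AI-NS replicate 8, AU-NS replicates 2, 3, 4 and 8, AI-S replicates 4 and 5), whereas 1370146_at passed without any of the 31 arrays, with an adjusted p between 0.0023 and 0.0153.

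The groups of each task showed how the Glrb levels were ordered. For 1391092_at the mean was 12.89 ± 0.06 in AU-NS (SD, n = 8), 12.79 ± 0.04 in AU-S (n = 8), 12.75 ± 0.06 in AI-NS (n = 7) and 12.73 ± 0.08 in AI-S (n = 8). AU-NS stood 0.10 over AU-S (unadjusted p = 0.0215, limma adjusted p = 0.605), while AU-S and AI-NS, and AI-NS and AI-S, differed by less than the larger SD of the pair. For 1370146_at the order was the same, with 11.39 ± 0.12 in AU-NS, 11.35 ± 0.09 in AU-S, 11.19 ± 0.13 in AI-NS and 11.15 ± 0.16 in AI-S. Here the task groups of a phenotype differed by less than their SD, and the step from AU-S to AI-NS was larger than either SD.

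Glra2 encodes the alpha 2 subunit, the form abundant in the developing brain. Its values were widely spread, from 7.08 through a median of 7.74 to 8.23 in AU-act and from 5.92 through 7.63 to 7.98 in AI-act. The difference of 0.12 (SE 0.14, interval -0.15 to 0.40, limma adjusted p = 0.674) did not pass. A single array, AI-S replicate 2 at 5.92, set much of it, since without that array the difference was 0.00 in AU-act against AI-act (adjusted p = 0.987) and 0.12 in place of 0.34 in AU-S against AI-S (adjusted p = 0.682 and 0.545). The level was 7.74 ± 0.25 in AU-S, 7.40 ± 0.60 in AI-S, 7.65 ± 0.34 in AU-NS and 7.77 ± 0.16 in AI-NS. No neighbours in the order AI-NS, AU-S, AU-NS, AI-S differed beyond their spread, and the AU minus AI difference was above 0 after S training and -0.11 after NS training (interaction 0.45, SE 0.26, adjusted p = 1, or 0.24 without AI-S replicate 2).

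Gphn encodes gephyrin, the scaffold that also makes the molybdenum cofactor. Its lowest, median and highest values were 10.97, 11.10 and 11.19 in AU-act and 10.88, 11.07 and 11.18 in AI-act, an almost complete overlap. The difference was 0.02 (SE 0.03, limma adjusted p = 0.712), and its 95% interval of -0.04 to 0.09 bounds the change on this scale. The sign of this difference turned under a second quantile normalization (-0.00) and with the RNA quality or hexokinase covariate (-0.03 and -0.04).

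Nptn encodes neuroplastin, which besides its adhesive role is a partner of calcium pumps. Values lay at 14.47, 14.58 and 14.68 (lowest, median, highest) in AU-act and at 14.38, 14.51 and 14.63 in AI-act. Of the AU arrays 13 of 16 lay above the AI mean, and the difference of 0.06 (SE 0.03) reached an unadjusted p of 0.0478 and an adjusted p of 0.25 by limma. It shrank to 0.01 under a second quantile normalization.

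Rdx encodes radixin, a member of the ezrin, radixin and moesin family that links membrane proteins to actin, and its 5 probesets did not move together. The brightest, 1388619_at, had 10.82, 11.01 and 11.28 as lowest, median and highest value in AU-act and 10.78, 11.02 and 11.32 in AI-act. The groups coincided, with a difference of -0.01 (SE 0.05, interval -0.11 to 0.09, limma adjusted p = 0.938).

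Probeset 1396207_at of Rdx, in contrast, spanned 9.13 to 9.86 with a median of 9.51 in AU-act, and 8.63 to 9.61 with a median of 9.09 in AI-act. Of all members it had the smallest p, with a difference of 0.43 (SE 0.09, interval 0.25 to 0.60, limma adjusted p = 0.00321), or 1.34-fold. All 16 AU arrays lay above the AI mean and 14 of 15 AI arrays under the AU mean, the exception being AI-S replicate 7 at 9.61, and the adjusted p stayed between 0.000892 and 0.0067 when each array was left out in turn.

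For 1378287_at of Rdx the lowest, median and highest values were 8.63, 8.91 and 9.51 in AU-act and 7.95, 8.72 and 8.96 in AI-act. AU arrays lay above the AI mean in 16 of 16 cases and the difference was 0.32 (SE 0.09, limma adjusted p = 0.0435), or 1.24-fold. The call was lost without any of 16 arrays (AI-NS replicates 1, 5, 7 and 8, AU-NS replicates 2, 3, 4 and 8, AI-S replicates 3, 4, 5 and 8, AU-S replicates 1, 2, 4 and 5), where the difference lay between 0.27 and 0.32 and the adjusted p between 0.0523 and 0.0771.

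A further Rdx probeset, 1383825_at, had 10.14, 10.46 and 10.75 in AU-act and 9.97, 10.36 and 10.55 in AI-act as lowest, median and highest value, and its difference of 0.16 (SE 0.06, limma adjusted p = 0.0904) did not pass. It passed only without AU-NS replicate 7 (0.19, adjusted p = 0.0365). The dimmest, 1375542_at, lay the other way, with a median of 7.59 (7.30 to 8.32) in AU-act and 7.78 (7.41 to 8.45) in AI-act and a difference of -0.18 (SE 0.10, adjusted p = 0.313).

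**Figure D2:**
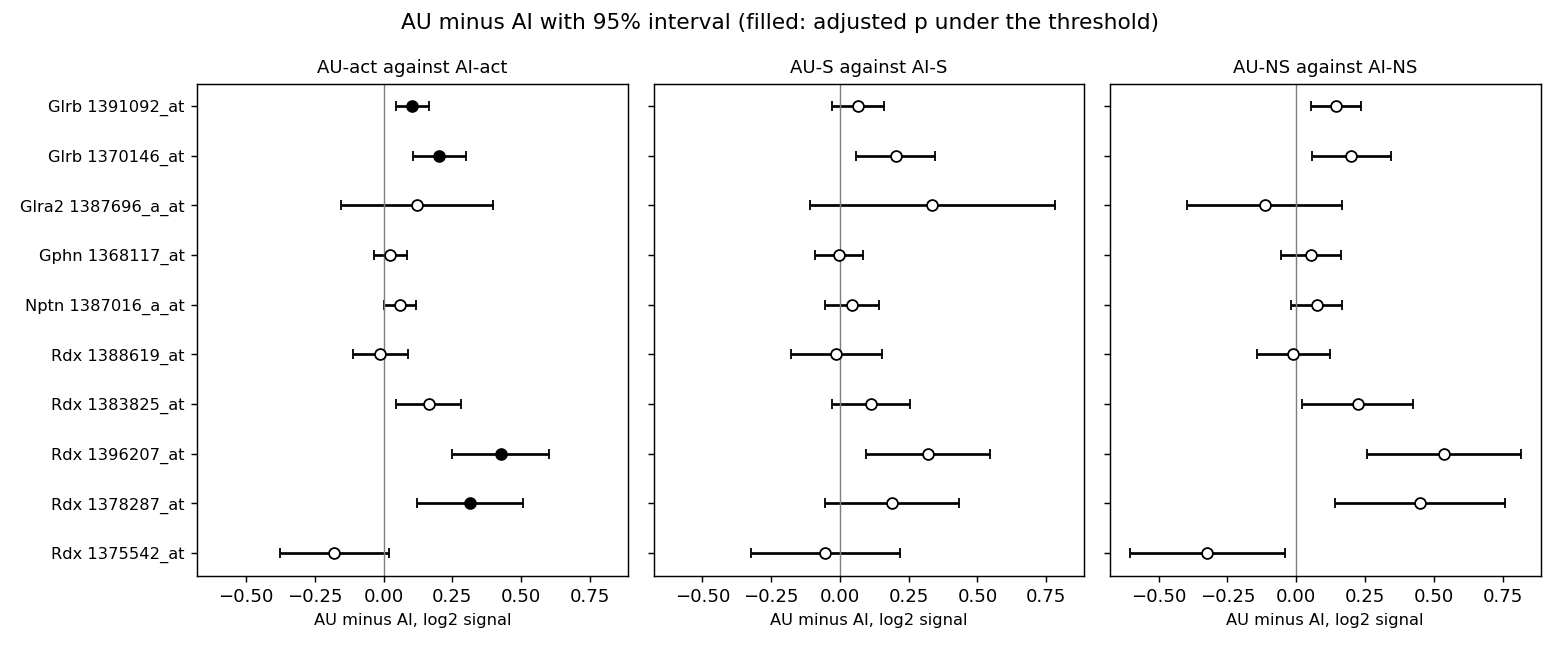
AU minus AI differences in log2 signal (horizontal axis) of the 10 member probesets, with 95% intervals from limma, for the tasks pooled (left), after S training (middle) and after NS training (right). Filled points passed the threshold, and they are the 2 Glrb and 2 Rdx probesets in the left panel, from 0.10 to 0.43.

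The disagreement between probesets of a gene was itself tested, as the difference between the brightest probeset and each other within an array, in 5 pairs by two-sided permutation of the AU and AI labels. For Rdx 1388619_at minus 1396207_at this was 1.49 ± 0.27 in AU (SD, n = 16) and 1.93 ± 0.29 in AI (n = 15), so that AU minus AI was -0.44 (permutation p = 2e-04). With 1378287_at as the other Rdx probeset AU minus AI was -0.33 (permutation p = 0.0029), with 1383825_at it was -0.18 (permutation p = 0.0216), and with 1375542_at it was 0.17 (permutation p = 0.125). The Glrb pair gave -0.10 (permutation p = 0.0251). These are raw p-values for 5 pairs. The places of the probes on the transcripts are not used here, and which transcript forms each probeset reads was not tested.

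After the group means were subtracted, the 3 Rdx probesets 1383825_at, 1396207_at and 1378287_at followed each other over the 31 arrays, with Pearson's r between 0.729 and 0.842. The brightest Rdx probeset followed none of them (r between -0.0122 and 0.199), and the dimmest ran against them (r between -0.546 and -0.432). Glrb 1370146_at had r between 0.528 and 0.643 with the same 3, and r = 0.436 with the other Glrb probeset. Gphn and Nptn had r = 0.618. Glra2 stayed between -0.29 and 0.231 with the other 9. These r describe arrays that share a tissue dissection, a normalization and a range of RNA quality, and carry no test.

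**Figure D3:**
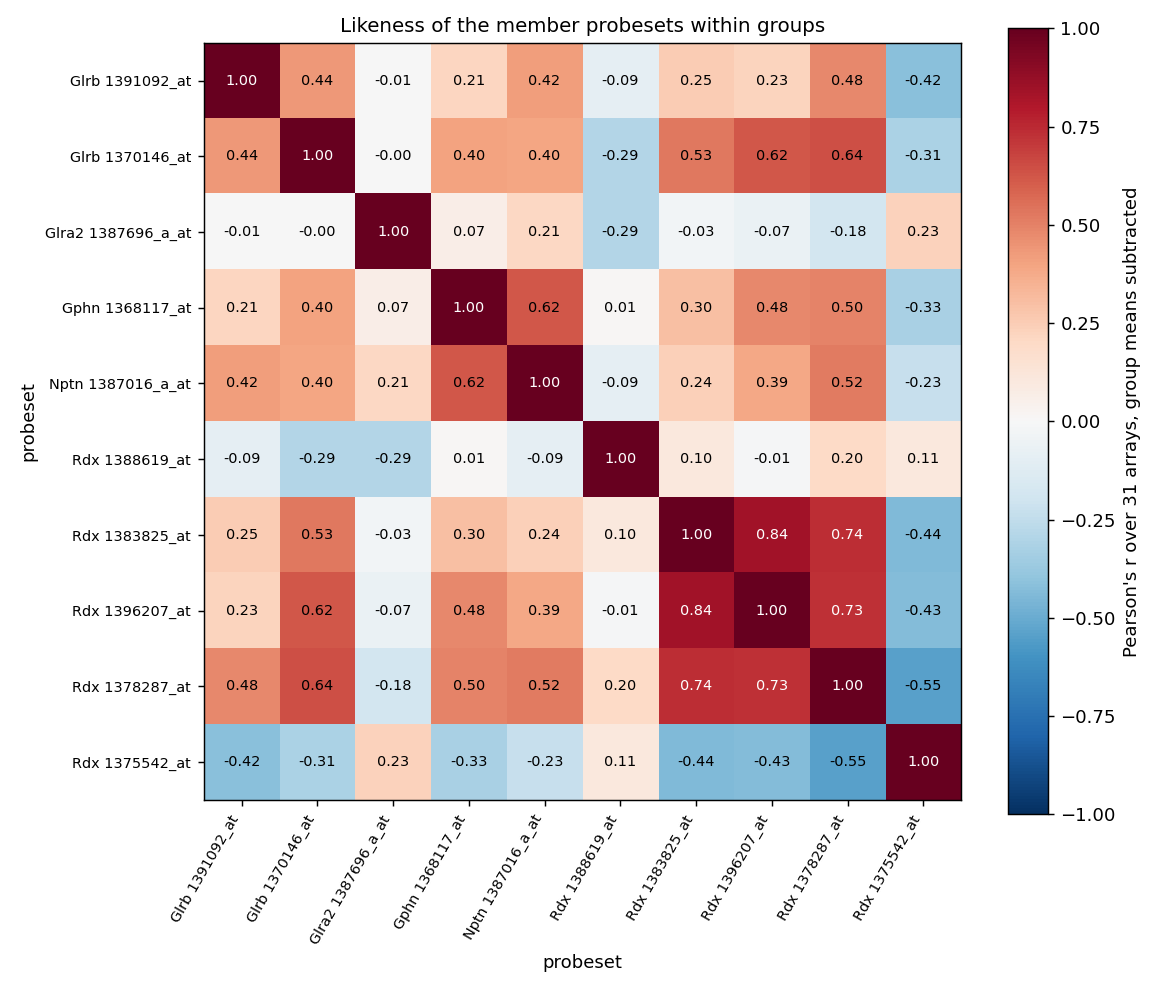
Pearson's r between the 10 member probesets (both axes) over 31 arrays after each group's mean was subtracted, from -1 (blue) to 1 (red), with r printed in each cell. The block of 3 Rdx probesets at r of 0.729 to 0.842 stands beside the brightest Rdx probeset, at -0.0122 to 0.199 with them.

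By the same measure, over single-gene probesets, those most like the brightest probeset of each member were Cdh22 (r = 0.717), Prkci (0.674) and Vti1b (0.658) for Glrb, Marchf6 (0.79), Utp25 (0.719) and Nat8f3 (0.694) for Glra2, and Sanbr (0.827), Ncs1 (0.78) and Per1 (0.774) for Gphn. For Nptn they were Hpcal4 (0.84), Hgsnat (0.794) and Smap2 (0.753), and for Rdx 1388619_at they were Pkp4 (0.827), Lpar1 (0.816) and Cyb5r2 (0.806). For Rdx 1396207_at, looked up after its values were seen, they were 2 probesets of Prkar1a (0.847 and 0.823) and Gnai1 (0.821), a different set from that of the brightest Rdx probeset. All r are over 31 arrays.

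A measure of RNA quality moved with the phenotype. Gapdh and beta-actin each have control probesets near either end of the transcript, which report how far signal falls towards the 5′ end, and the mean 3′ minus 5′ log2 difference was 1.45 ± 0.10 in AU (SD, n = 16) and 1.59 ± 0.13 in AI (n = 15), AU minus AI -0.14 (permutation p = 0.00061). For the hexokinase controls AU minus AI was -0.38 (permutation p = 3e-05). With the Gapdh and beta-actin value as a covariate, AU-act minus AI-act was 0.06 and 0.12 for Glrb 1391092_at and 1370146_at (limma adjusted p = 0.485 and 0.341) and 0.29 and 0.14 for Rdx 1396207_at and 1378287_at (adjusted p = 0.239 and 0.603). With the hexokinase value these differences were 0.09, 0.09, 0.23 and 0.20, with adjusted p from 0.644 to 0.751, and no member passed in either fit. Over all probesets 893 passed without a covariate, 1 with the Gapdh and beta-actin value and 0 with hexokinase. In the Rdx pair 1388619_at minus 1396207_at, -0.27 (95% interval -0.49 to -0.04) was left of -0.44 with the Gapdh and beta-actin covariate, and the intervals of the other 4 pairs then held 0. Leaving out the 2 arrays with the largest control difference (AI-NS replicate 8 at 1.92 and AI-S replicate 4 at 1.78) kept the calls of Glrb 1370146_at (0.18, adjusted p = 0.0273) and Rdx 1396207_at (0.38, adjusted p = 0.0124) and lost the other 2. After group means were subtracted, the Gapdh and beta-actin value had Pearson's r of -0.44 and -0.501 with Glrb 1391092_at and 1370146_at (31 arrays). For Rdx 1396207_at and 1378287_at r was -0.413 and -0.474. The other members ran from -0.559 (Gphn) to 0.349 (Rdx 1375542_at). With the hexokinase value r was -0.138 for Glrb 1391092_at and -0.495 for Glrb 1370146_at. It was -0.462 for Rdx 1396207_at and -0.264 for Rdx 1378287_at, and the other members ran from -0.535 (Gphn) to 0.279 (Rdx 1388619_at). These r carry no test. The part of RNA quality in the differences was not tested beyond these fits.

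**Figure D4:**
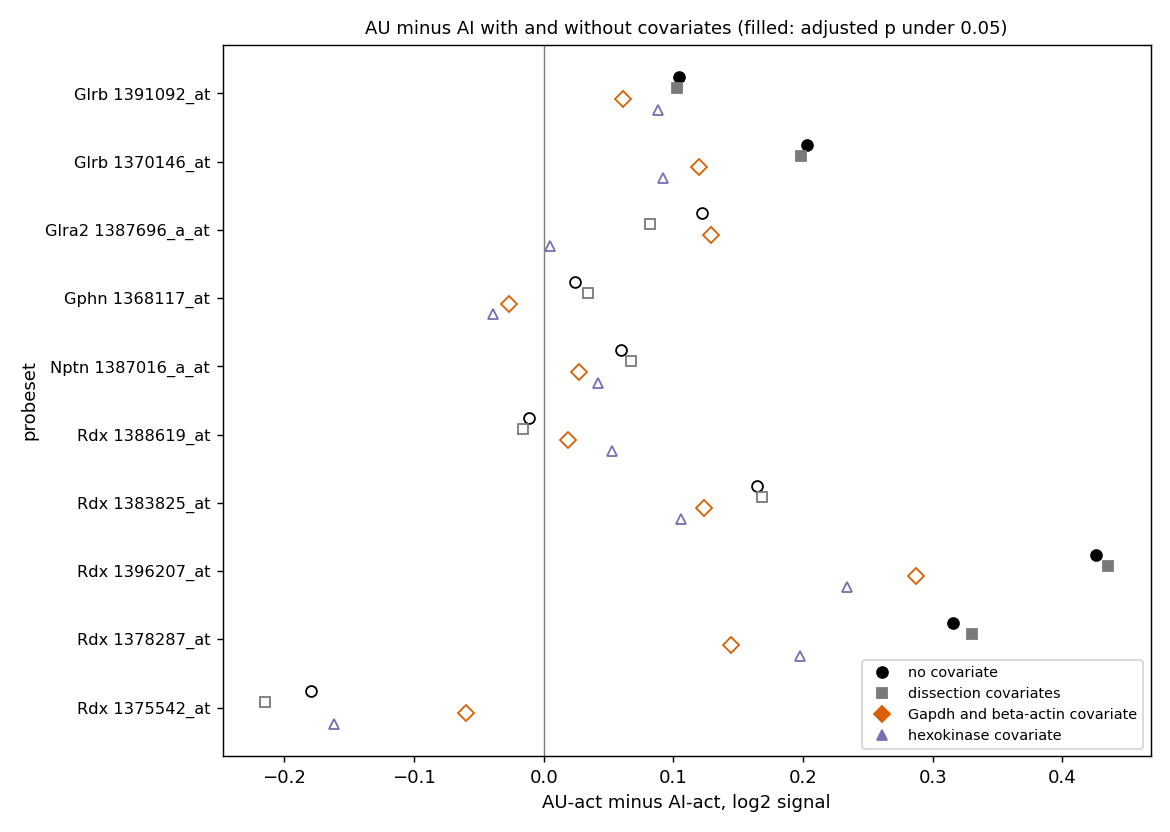
AU-act minus AI-act differences in log2 signal (horizontal axis) of the member probesets without a covariate, with the dentate and CA1 marker means, with the Gapdh and beta-actin 3′ minus 5′ difference, and with that of hexokinase. Filled symbols had a limma adjusted p under 0.05, which no member had with either RNA covariate, where Rdx 1396207_at lay at 0.29 and 0.23 in place of 0.43.

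Cell type markers were read beside these values, since in tissue fewer cells of a type and less RNA per cell cannot be told apart. The CA3 markers measured, Grik4 and Bok, averaged 10.2 and 10.4 in log2 signal, and 2 others of that list are not analysed here. Markers of CA1 (4 of 5 symbols measured, list means 8.95 to 10.51 in AU and 9.67 to 10.82 in AI) and of dentate granule cells (2 of 5, 9.19 to 9.95 and 9.09 to 10.44) were also present. At the brightest probeset none of their genes was called between AU-act and AI-act, and with both means as covariates the same 4 member calls stood. Astrocyte (4 of 4 measured), oligodendrocyte (4 of 5) and microglial (2 of 4) lists held no called gene either at that probeset. Among interneuron markers Gad2 rose (1 of 7), and list means ran from 8.65 to 9.47 in AU and from 8.71 to 9.39 in AI. The uncalled Gad1, Pvalb and Slc32a1 had 0.10, 0.08 and 0.02, and the uncalled Vip, Sst and Npy had -0.34, -0.06 and -0.05. Alb, of the endothelial and blood list (1 of 4, means 8.41 to 9.39 in AU and 8.81 to 9.34 in AI), fell by 0.65 (limma adjusted p = 0.0139). The rest of that list, Cldn5, Hbb and Flt1, had 0.09, 0.11 and -0.01, and none was called. At dimmer probesets, looked up after the other values were seen, Bok (0.23, adjusted p = 0.0353), the astrocyte gene Slc1a3 (0.20, adjusted p = 0.019), the oligodendrocyte genes Mobp (0.39, adjusted p = 0.00313) and Mbp (0.16, adjusted p = 0.0256) and Gad1 (0.55, adjusted p = 0.00255) were higher in AU-act. These were 5 of the 11 such probesets, while 5.00% of all probesets passed in that direction. The uncalled dimmer probesets ran from -0.03 (Slc1a3) to 0.33 (Aqp4, limma adjusted p = 0.06). The part of the marker genes in the members' differences was not tested. Choroid plexus markers are not analysed here.

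Within each task no member passed the threshold of an adjusted p under 0.1. After S training 0 of 10 members and 0.413% of all probesets passed, and 2 members (Glrb 1370146_at and Rdx 1396207_at) against 12.3% of all had an unadjusted p under 0.05. Glrb 1370146_at lay at 11.19, 11.36 and 11.46 (lowest, median, highest) in AU-S and at 10.91, 11.11 and 11.43 in AI-S, a difference of 0.20 (SE 0.07, limma adjusted p = 0.23). Rdx 1396207_at lay at 9.13, 9.37 and 9.80 in AU-S and at 8.92, 9.10 and 9.61 in AI-S, a difference of 0.32 (SE 0.11, adjusted p = 0.224). In both probesets 7 of 8 AI-S arrays were under the AU-S mean, and the array that was not was AI-S replicate 7. Without it both passed (0.24, adjusted p = 0.0671, and 0.39, adjusted p = 0.0586), while the share of all probesets that passed was 2.76% in place of 0.413%.

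After NS training no probeset passed (0 of 10 members, 0% of all), and an unadjusted p under 0.05 was found for 6 members against 11.5% of all, with 5 of them higher in AU-NS and Rdx 1375542_at lower (-0.32, SE 0.13, unadjusted p = 0.028, limma adjusted p = 0.377). Rdx 1396207_at lay at 9.20, 9.56 and 9.86 in AU-NS and at 8.63, 9.09 and 9.41 in AI-NS, a difference of 0.54 (SE 0.13, limma adjusted p = 0.176). Rdx 1378287_at differed by 0.45 (SE 0.15, adjusted p = 0.252), with 8.73, 8.95 and 9.51 in AU-NS and 7.95, 8.51 and 8.96 in AI-NS. For both, all 8 AU-NS arrays lay above the AI-NS mean and all 7 AI-NS arrays under the AU-NS mean. Glrb 1391092_at differed by 0.14 (SE 0.04, adjusted p = 0.229), and 7 of 8 AU-NS arrays exceeded the highest AI-NS array. Without AI-NS replicate 3, Rdx 1396207_at passed (0.57, adjusted p = 0.0905, with 208 of all probesets), as it did with all 4 groups in a single fit (0.54, adjusted p = 0.074, with 163 of all probesets).

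Whether the AU minus AI difference itself depended on the task was tested as an interaction. No member passed (0 of 10, 0% of all probesets), and 0 members against 2.44% of all had an unadjusted p under 0.05. The AU minus AI difference after S training, less that after NS training, was -0.22 for Rdx 1396207_at (SE 0.17, 95% interval -0.57 to 0.14) and 0.00 for Glrb 1370146_at (SE 0.10, interval -0.19 to 0.20).

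The tasks were last set against each other within a phenotype. AI-S against AI-NS gave 0 of 10 members and 0% of all probesets under an adjusted p of 0.1, and 0 members against 4.09% of all at an unadjusted p under 0.05. The smallest member adjusted p was 0.862, which Glra2 (-0.36, SE 0.22, or -0.15 without AI-S replicate 2) shared with 2 Rdx probesets. AU-S against AU-NS gave 0 of 10 and 0% as well, and 1 member, Glrb 1391092_at, against 8.12% of all at the unadjusted threshold. That probeset had 12.73, 12.79 and 12.85 (lowest, median, highest) in AU-S and 12.80, 12.89 and 13.00 in AU-NS, and all 8 AU-S arrays lay under the AU-NS mean. The difference was -0.10 (SE 0.04, limma adjusted p = 0.605).

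The other genes of the pathway came from lists in which the brightest probeset stood for each gene, compared as AU-act against AI-act and set beside the median of 0.01 over all probesets. The remaining glycine receptor alpha subunits are not analysed here. Of 8 measured genes of glycine transport and turnover (of 11 listed) none passed in either direction, with a median of 0.03. Dld, the dihydrolipoamide dehydrogenase of the glycine cleavage system, had 0.08 (adjusted p = 0.118), Amt, its aminomethyltransferase, had -0.08 (adjusted p = 0.54), and the transporter Slc7a10 had 0.04 (adjusted p = 0.554).

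The scaffold and adhesion proteins of inhibitory synapses likewise gave no call among 8 measured genes of 14 (median 0.03). The adhesion molecules Nlgn2 and Slitrk3 had -0.15 and -0.09 (limma adjusted p = 0.323 and 0.406), and Insyn1, an inhibitory synaptic protein, had 0.16 (adjusted p = 0.416). Among gephyrin partners and enzymes of the molybdenum cofactor 7 of 11 were measured, none passed and the median was 0.04, with the actin-binding profilins Pfn2 at 0.04 (another Pfn2 probeset, 1367970_at, rose by 0.24, adjusted p = 0.00587) and Pfn1 at 0.13 and sulfite oxidase, Suox, at -0.05 (adjusted p = 0.469, 0.562 and 0.493). For neuroplastin partners the count was 0 of 8 measured (of 9 listed, median 0.03), with the lactate transporter Slc16a1 at 0.10, its chaperone basigin, Bsg, at 0.13 and the calcium pump Atp2b3 at 0.07 (adjusted p = 0.282, 0.312 and 0.382). A dimmer probeset of the calcium pump Atp2b2, 1387285_at, rose by 0.76 (SE 0.22, adjusted p = 0.0321, lost without any of 10 of the 31 arrays, up to 0.0612).

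The family and partners of radixin had 10 of 13 symbols measured, of which 1 rose and none fell at the brightest probeset (median 0.06). That was Icam5, telencephalin, a neuronal adhesion molecule that binds this family, at 0.29 (SE 0.09, limma adjusted p = 0.0496), a call lost without any of 22 of the 31 arrays (adjusted p up to 0.087). Ezrin, Ezr, had 0.16 (adjusted p = 0.0866) and the adaptor Nherf2 had 0.17 (adjusted p = 0.119). A dimmer probeset of Rock2, a kinase that phosphorylates this family, rose by 0.18 (1393045_at, adjusted p = 0.0169). Of GABA-A receptor subunits 7 of 14 were measured, with a median of 0.02, and 1 rose, Gabrg1, at 0.35 (SE 0.08, adjusted p = 0.00587), and it passed after S training too, at 0.41 (SE 0.09, adjusted p = 0.0823), as no other probeset of a list gene did within a task. Gabra4 had 0.23 (adjusted p = 0.182) and Gabra5, the subunit radixin anchors and also a member of the radixin list, had 0.06 (adjusted p = 0.28). Of GABA synthesis and transport 3 of 5 were measured (median 0.11). Gad2, a GABA-making enzyme, rose by 0.48 (SE 0.14, adjusted p = 0.0391, lost without any of 12 of the 31 arrays, up to 0.0685), while Gad1, the other such enzyme, and Abat, which breaks GABA down, had 0.10 and 0.11 at their brightest probesets (adjusted p = 0.283 and 0.469). A dimmer Gad1 probeset, 1370760_a_at, rose by 0.55 (SE 0.11, adjusted p = 0.00255). The dimmer probesets of Pfn2, Atp2b2, Rock2 and Gad1 were added after their values were seen, and none fell among the lists. With the Gapdh and beta-actin covariate Icam5, Gabrg1 and Gad2 stood at 0.30, 0.16 and 0.22 (adjusted p = 0.281, 0.377 and 0.598), and the dimmer probesets of Gad1, Pfn2, Rock2 and Atp2b2 at 0.31, 0.11, 0.09 and 0.24 (adjusted p = 0.242, 0.387, 0.478 and 0.678), and none passed.

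**Figure D5:**
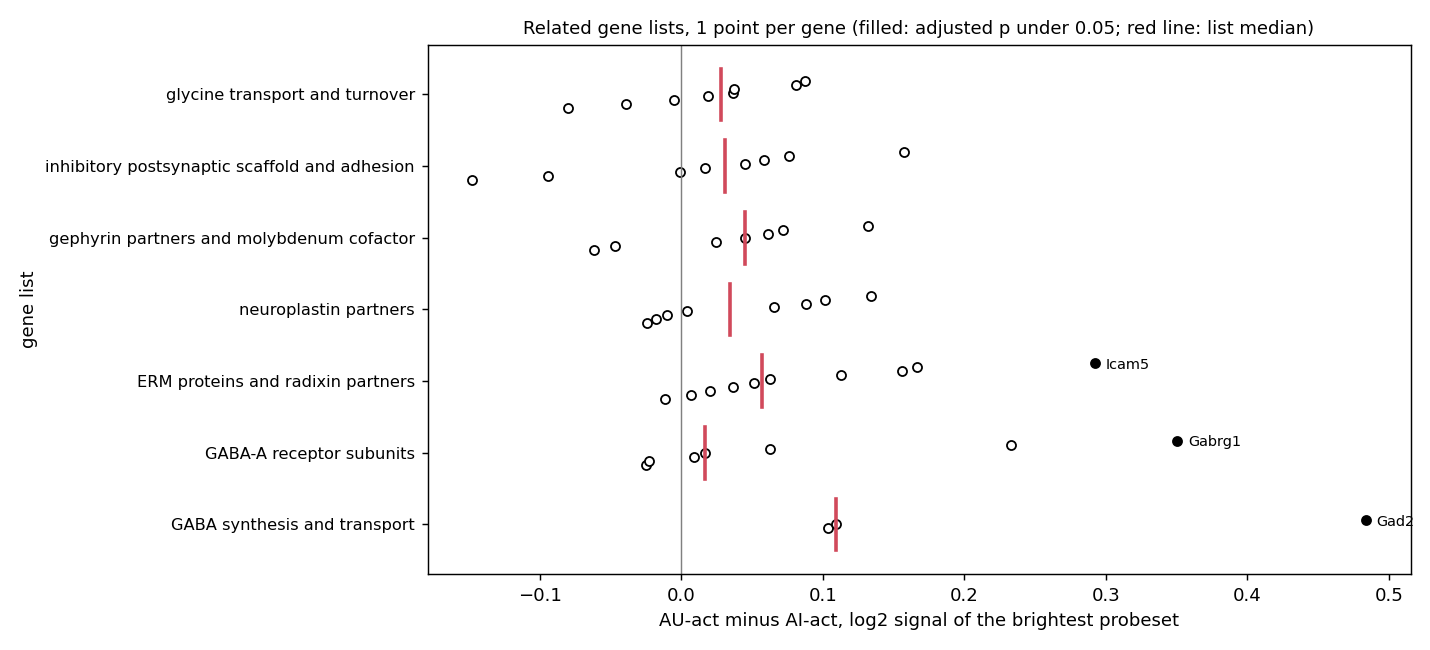
AU-act minus AI-act differences in log2 signal (horizontal axis) of the related gene lists (vertical axis), with 1 point per gene at its brightest probeset, filled where the limma adjusted p was under 0.05, and a red line at each list's median. Icam5, Gabrg1 and Gad2, at 0.29 to 0.48, are the filled points, and list medians lie between 0.02 and 0.11.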

How the data were processed

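The authors extracted CA3 RNA, hybridised 1 array per rat and made the deposited log2 values with gcRMA (version not given in the sources used here). The table holds 16204 probesets, a part of those on the array, and no column was left unused. The study's lower limit of 4 on a probeset's mean log2 value removed none, since the smallest mean was 5.00. The annotation named a single gene for 12242 probesets (9037 genes), several for 293 and none for 3669, and no probeset of several genes held a member. Array medians lay between 8.97 and 9.14. The values carry no read depth, and precision is limited by how many rats were measured.

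Groups came from the sample titles. In R 4.3.3, limma 3.58.1 (lmFit and eBayes, two-sided) was fitted to the arrays of each comparison, with Benjamini-Hochberg adjustment over all 16204 probesets and thresholds of 0.05 for the pooled tasks and 0.1 otherwise. Probeset pairs and RNA controls were compared by permutation of the labels (100000 resamples). The fits were checked on simulated data, where 1.5-fold changes were recovered in 71% to 89% of cases over the 6 comparisons. Changes of 1.2-fold were recovered in 56% with the tasks pooled, in 29% after S and 35% after NS training. For the interaction it was 18%, for AI-S against AI-NS 30% and for AU-S against AU-NS 34%. A member that did not pass there may still differ by that amount. The simulated noise was independent between probesets and held no RNA quality difference between phenotypes, so recovery in the measured data may differ from these shares. Intervals are 95%. Named genes are all member probesets, the 3 genes of each list with the smallest p, and the 3 probesets most like each member's brightest. Members and lists were chosen with earlier results of these data known. Alternatives were other lower limits and priors, and median centring or a second quantile normalization of the gcRMA values. Further ones were the replicate number as a block, RNA and dissection covariates, all groups in 1 fit, the SAM statistic with 100 permutations, and each array left out. Covariates for probeset pairs, the removal of 2 arrays and the alternatives and dimmer probesets of list genes were added after the data were seen. The rats came from 6 behavioural runs, which are not used here. Figures used Python 3.11 and matplotlib 3.10.9.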

Additional observations from a re-analysis of the deposited data

Results flagged for a closer look

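In each of the 40 sets of member probeset and group, the highest and lowest array were compared with the rest by Dixon's test, which by chance marks about 1 in 20 groups. It marked 5. Glra2 1387696_a_at was 5.92 in AI-S replicate 2, with the next array at 7.50. Glrb 1391092_at was 12.54 in AI-S replicate 4, with the next at 12.69. Rdx 1396207_at was 9.61 in AI-S replicate 7, with the next at 9.20, and Rdx 1388619_at was 11.32 in AI-NS replicate 5, with the next at 11.07. Rdx 1375542_at was 8.32 in AU-S replicate 8, with the next at 7.77. Each fell on a different array.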

How the results depend on the processing

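The lower limit of 4 removed no probeset, so fitting without it repeated the same fit and is no check. With a limit of 6 on the mean, and with a trend and robust prior, all 60 member results kept their call. For AU-act against AI-act, where 4 members and 893 of all probesets passed, 2 members and 773 probesets passed under quantile normalization (Glrb 1391092_at and Rdx 1378287_at were lost, adjusted p = 0.135 and 0.0514), and without the 2 arrays of largest control difference (516 of all probesets). With the RNA quality covariate 0 members and 1 probeset passed, and with hexokinase 0 and 0. Median centring lost Glrb 1391092_at (adjusted p = 0.0706, 808 probesets passed). The 4 member calls were kept with the SAM statistic (1239 probesets passed) and with all groups in 1 fit (908 probesets passed). Leaving out each array in turn gave 2 to 5 members and 621 to 1181 probesets. For AU-S against AI-S, 0 members passed in all of these but 67 of all probesets became 9 with median centring, 12 with quantile normalization, 1 with RNA quality, 0 with hexokinase, 0 with dissection covariates and 255 with SAM, and ran from 5 to 448 (members 0 to 2) as arrays were left out. For AU-NS against AI-NS, 0 became 163 probesets and 1 member with all groups in 1 fit and 15 probesets with SAM, with 0 to 208 (members 0 to 1) over arrays left out. For both task comparisons and the interaction 0 probesets passed in every fit run. Of the list genes, Icam5 was also lost with median centring, quantile normalization and the replicate block (adjusted p = 0.0649, 0.0806 and 0.0814). Against the median of the other Rdx probesets the brightest gave -0.37 (permutation p = 0.00045), opposite in sign to the 0.17 of its pair with 1375542_at. The cause of these changes was not tested, other than that fits without an array have fewer samples.

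With the replicate block 2 members and 591 probesets passed for AU-act against AI-act (Glrb 1391092_at at 0.10, adjusted p = 0.086, and Rdx 1378287_at at 0.30, adjusted p = 0.0954, were lost), and 3 probesets for AU-S against AI-S, and it changed no other member call. Arrays sharing a number had correlated deviations between -0.391 and 0.311 and at most 2 pairs over 0.1 in a comparison, so the numbers were not taken to pair rats. Among the members Glra2, with an SE of 0.14 for AU-act against AI-act, was the least precise.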
